A study of Mus musculus with 6 samples.

Results

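The triggering receptors expressed on myeloid cells (TREM) and the adaptors through which they signal were described in liver non-parenchymal cells (LNPCs) of mice with nonalcoholic steatohepatitis (NASH). The members were taken by symbol from the rows of the deposited count tables. They comprised the receptor genes Trem1, Trem2, Trem3, Treml2 and Treml4 and the adaptor genes Tyrobp and Hcst, which were 7 of the 19349 genes listed, and each had a row in every table. TREM receptors have 1 immunoglobulin-like domain outside the cell. Trem1, Trem2 and Trem3 have short tails that carry no signal of their own, and they signal through Tyrobp (DAP12), a transmembrane adaptor whose phosphorylated motif recruits the kinase Syk. Hcst (DAP10) is the related adaptor that recruits phosphoinositide 3-kinase, and it serves the NK and T cell receptor NKG2D as well as some Tyrobp-coupled receptors. In the steatotic liver Trem2 is known as a marker of lipid-associated macrophages, and Trem1 as an amplifier of neutrophil and monocyte responses.

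All 6 libraries came from male C57BL/6J mice that had been given a high-fat diet to induce NASH, with no genetic modification named. The 3 vehicle libraries were from mice given DMSO, and the 3 ginkgetin libraries were from mice given ginkgetin, a plant biflavone, at 10 mg/kg/day by the intragastric route in the last part of the diet. The labels do not give the age of the mice or whether each library came from 1 mouse, so the p-values below measure the spread between libraries. No chow-fed library was used here, and no transcript reported on the treatment itself, so groups were taken as labelled. LNPCs were profiled with the 10x Genomics Chromium system, which counts unique molecular identifiers (UMIs, 1 per captured transcript).

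The 5 receptor genes and Treml1 lie together within 134.4 kb of chromosome 17 (GRCm38, plus strand), and other genes of this stretch were not looked up. Trem1 is at chr17:48232768-48246924, Trem3 at chr17:48247777-48258841, Treml4 at chr17:48264295-48275360, Treml2 at chr17:48299498-48312533 and Trem2 at chr17:48346401-48354147. Treml1, which is not a member here, is expressed by platelets and had 39 UMIs in all libraries together. The adaptors are neighbours on chromosome 7, Tyrobp at chr7:30413760-30417585 on the plus strand and Hcst at chr7:30417712-30419854 on the minus strand, with 126 bases between their 3' ends. The tables do not state whether reads were counted by strand. The 250 bases before the start of Trem2, Trem1 and Treml4 are shown (RefSeq, GRCm38.p6, plus strand) because these neighbours differed in which cells held their transcripts. Capitals mark matches to GAGGAA, the core of the site bound by the myeloid factor PU.1, and to AGGTCA, a nuclear receptor half-site, on either strand.
Trem2 (chr17:48346151-48346400): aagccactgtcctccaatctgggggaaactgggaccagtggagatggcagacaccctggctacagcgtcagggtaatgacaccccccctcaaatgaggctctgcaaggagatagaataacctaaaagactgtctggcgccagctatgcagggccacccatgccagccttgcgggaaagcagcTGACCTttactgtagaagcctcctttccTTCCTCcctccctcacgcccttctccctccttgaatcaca
Trem1 (chr17:48232489-48232738): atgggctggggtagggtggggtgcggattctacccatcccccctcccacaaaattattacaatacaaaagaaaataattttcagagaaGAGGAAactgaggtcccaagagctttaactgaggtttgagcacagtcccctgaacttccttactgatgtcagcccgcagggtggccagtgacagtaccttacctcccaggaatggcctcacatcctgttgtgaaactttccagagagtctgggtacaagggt
Treml4 (chr17:48264045-48264294): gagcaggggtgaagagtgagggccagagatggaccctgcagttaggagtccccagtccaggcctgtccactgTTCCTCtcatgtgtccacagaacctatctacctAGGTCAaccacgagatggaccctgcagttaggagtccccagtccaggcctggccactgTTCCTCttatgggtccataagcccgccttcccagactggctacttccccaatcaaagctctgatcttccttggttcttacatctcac
Distances are from the RefSeq start, which for Trem1 lies upstream of the GENCODE start given above. In Trem2 the PU.1 letters began 40 bases and the half-site 68 bases before the start. Trem1 held the PU.1 letters once, 162 bases before the start, and Treml4 held them at 178 and 87 bases and the half-site at 145 bases. GAGGAA was found on either strand in 23.3% and AGGTCA in 14.0% of the 32851 promoters of this length, so such matches were common. The AP-1 letters TGACTCA (4.5% of promoters) were found in none of the 3.

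After filtering, 27544 of 33168 barcodes were kept, 3336 to 6918 per library, with medians of 2483 to 8412 UMIs per cell. Before filtering the libraries held 13128697 to 61796882 UMIs. Cells were clustered without the 7 members, and no member served as a marker. The classes held 4001 macrophage-like, 1596 monocyte-like, 60 neutrophil-like, 1625 dendritic-like, 9510 lymphoid-like and 6571 endothelial-like cells. Replicate 3 of both groups differed from replicates 1 and 2 in its barcode set and in the genes listed at 0 throughout (946 against 2253 genes), so values within each set are given for some results. Over all pairs of libraries 266 barcodes were shared, 85 at most in a pair, and none of them had the same UMI total in both libraries. Macrophage-like cells made up 21.7%, 22.1% and 25.9% of kept cells in the vehicle libraries and 2.98%, 3.51% and 14.9% in the ginkgetin libraries, and different clusters held most of them in the 2 groups. Most vehicle macrophage-like cells lay in 9 clusters that held few ginkgetin cells, whereas most ginkgetin macrophage-like cells lay in 3 Kupffer-like clusters led by genes such as Cd5l, Clec4f, Vsig4 and Fcna. Their median depth was also lower, 2319, 2084 and 2347 UMIs per cell against 8824, 7505 and 16397. The neutrophil-like cells went partly against their name, since the 8 macrophage markers summed to 11130 and 12394 CPM (UMIs of a gene scaled to the same total in each library and class) in the 2 vehicle libraries with 10 or more such cells, and values in them are given by label only.

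Trem2 was the member that differed most clearly between the groups, and macrophage-like cells held most of it. The level of Trem2 in macrophage-like cells was 919, 1195 and 1288 CPM of the class's UMIs in vehicle replicates 1, 2 and 3 and 101, 118 and 109 CPM in ginkgetin replicates 1, 2 and 3. Every ginkgetin library lay below every vehicle library, and the counts behind these levels were 11507, 7235 and 22981 against 34, 82 and 224 UMIs. The mean fell from 1134 ± 192 to 109 ± 8.80 CPM (SD, n = 3 each). With the cell filter read as 250 to 5000 UMIs in place of genes, which leaves out the deeper cells, the vehicle mean was 641 CPM and the log2 fold change -3.72 (edgeR adjusted p = 0.0143). Under the filter on genes, by edgeR's quasi-likelihood test Trem2 was 14.2-fold lower (log2 fold change -3.83, SE 0.25, adjusted p = 0.0102). Fold changes were scaled by TMM (trimmed mean of M values). Scaling by total UMIs moved the median of all genes in macrophage-like cells by 0.485 on the log2 scale, and on that scale Trem2 was lower by 3.37 (adjusted p = 0.00587). A gene was called when its adjusted p was under 0.05 and its fold over 2. In macrophage-like cells 2 of the 6 members tested were called, Trem2 and Treml2, both lower, beside 4.86% of all 10188 genes called lower and 10.5% called in either direction.

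The call of Trem2 in macrophage-like cells was lost when a library was left out in 3 of 6 cases. Without vehicle 1, vehicle 2 or ginkgetin 2 the adjusted p was 0.0812, 0.107 or 0.0607, while the log2 fold change stayed between -3.93 and -3.73 over the 6 fits. Each of these 3 fits called 0 genes in all. Within replicates 1 and 2 the log2 ratio of mean CPM was -3.27 and within replicate 3 it was -3.57. Markers of other cells moved with the group. The 8 endothelial markers, all detected in every library, summed to 187 to 210 CPM in vehicle and 956 to 1601 CPM in ginkgetin macrophage-like cells, and the 8 macrophage markers summed to 17798 to 20958 and 14003 to 16204 CPM. The Kupffer markers summed to 5449 to 6224 and 7488 to 13259 CPM, those of patrolling monocytes to 503 to 558 and 1381 to 1658 CPM and those of plasma cells to 122 to 241 and 302 to 840 CPM. The part of these markers and of the depth gap in the Trem2 result was not tested. Leaving out a Kupffer-like cluster of 388 cells with a median of 1712.5 UMIs, 374 of them from ginkgetin 3, gave a log2 fold change of -3.58 (adjusted p = 0.00490).

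**Figure D1:**
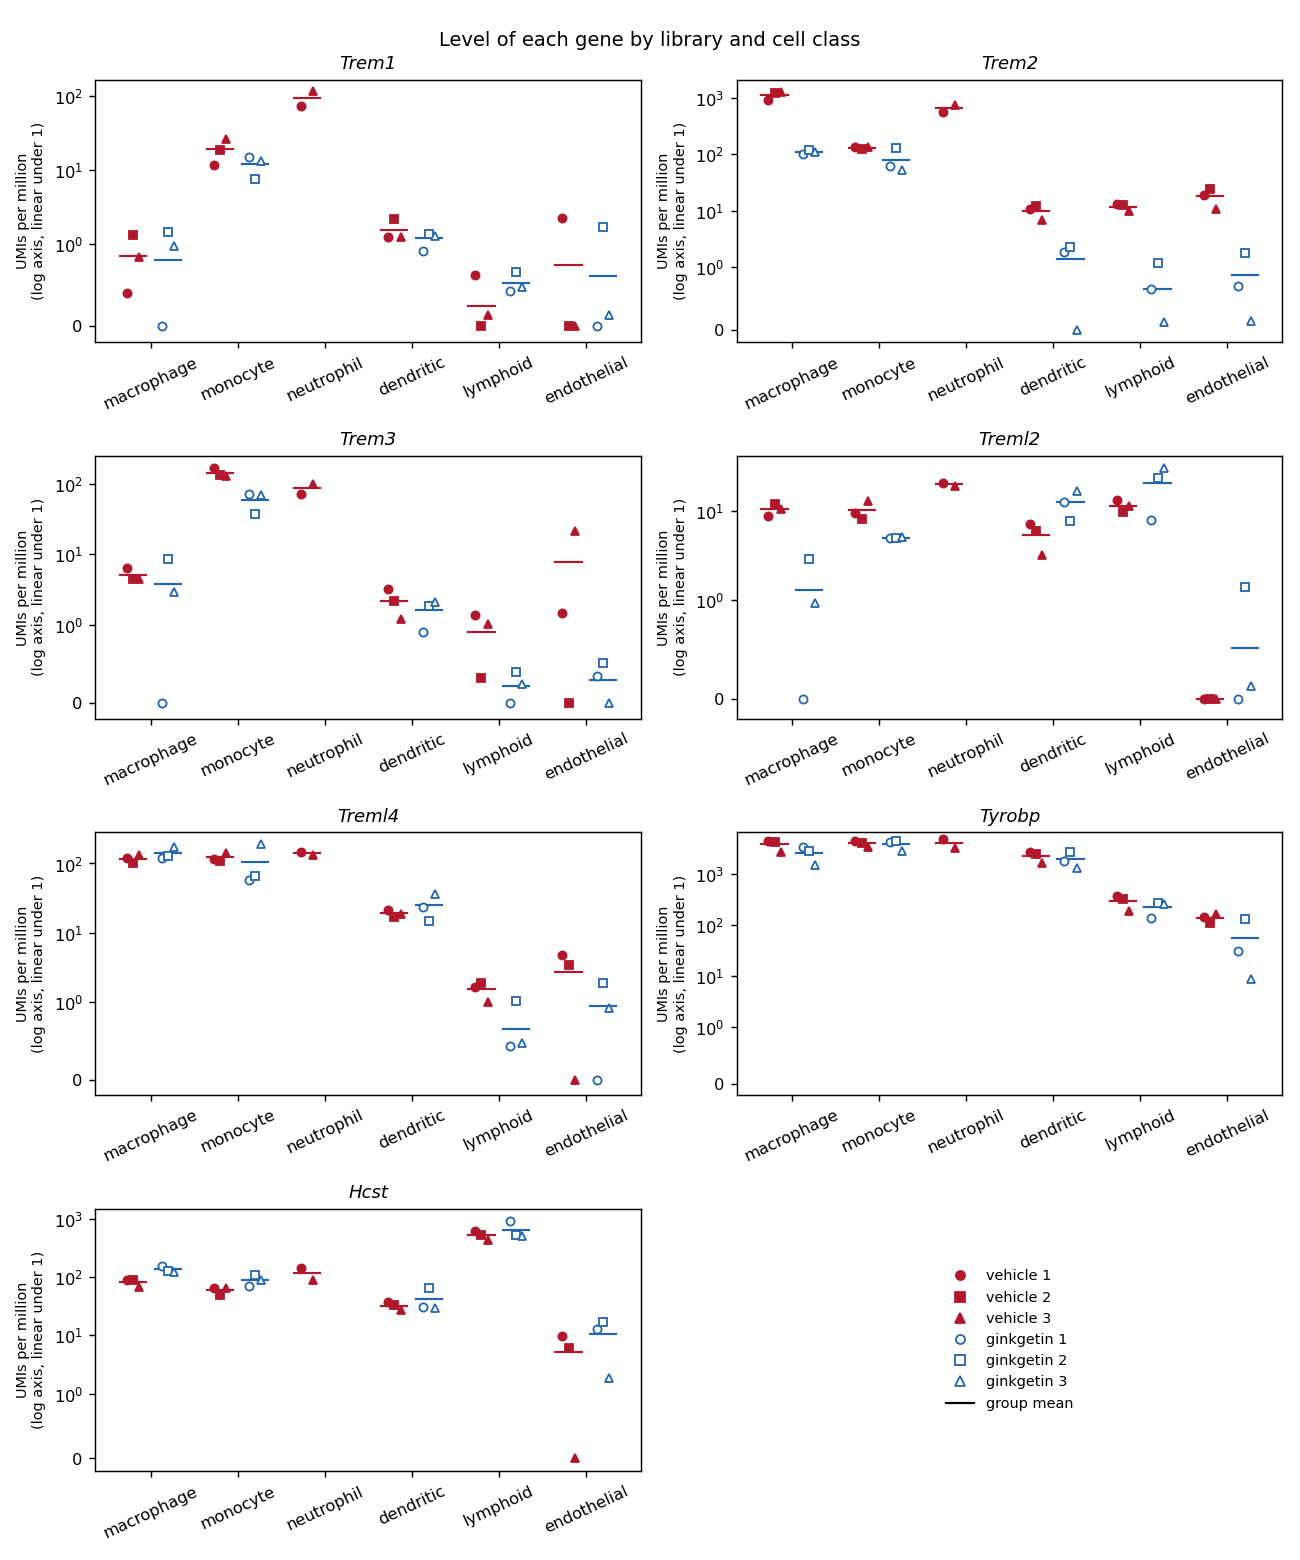
Level of each of the 7 genes in CPM (log axis, linear under 1), with 1 point per library holding 10 or more cells of the class, filled for vehicle and open for ginkgetin, and a line at the group mean. Trem2 in macrophage-like cells sits between 919 and 1288 in the vehicle libraries and between 101 and 118 in the ginkgetin libraries, whereas the groups overlap for Treml4 in the same cells.

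The fall of Trem2 was seen in Kupffer-like cells, the resident macrophages of the sinusoid, and in the other macrophage-like cells. Kupffer-like clusters were named from the markers Clec4f, Vsig4, Timd4, Marco and Cd5l, and a cluster did not have to hold all of them. The Kupffer-like cells had 729, 787 and 750 CPM of Trem2 in vehicle and 33.1, 48.7 and 32.7 CPM in ginkgetin libraries. Other macrophage-like cells had 1169, 1557 and 1671 CPM in vehicle and 381, 289 and 520 CPM in ginkgetin libraries. The groups were apart in both sub-classes, and in both groups the other macrophage-like cells had the higher level. In Kupffer-like cells the log2 fold change was -4.74 (SE 0.30, edgeR adjusted p = 0.00496), beside 4.3% of 9046 genes called lower there. It was -2.19 in the other macrophage-like cells (SE 0.28, edgeR adjusted p = 0.0426), beside 0.0848% of 8252 genes called lower. These ginkgetin levels rest on 90 other macrophage-like cells, 13, 42 and 35 by library, with 25, 58 and 167 Trem2 UMIs. Leaving out 1 library gave an adjusted p of 0.0127 to 0.0831 in Kupffer-like cells, past 0.05 without vehicle 2, ginkgetin 1 or ginkgetin 2, and of 0.0355 to 0.271 in the others, past 0.05 without vehicle 1, vehicle 2, ginkgetin 1 or ginkgetin 2. The cluster that both groups shared most, 193 vehicle and 75 ginkgetin cells led by C1qb and Cd74, had 1003 and 293 CPM of Trem2 over the pooled cells of each group. In a Kupffer-like cluster of 16 vehicle and 274 ginkgetin cells the pooled levels were close, at 46.8 and 39.6 CPM, and in another of 40 and 18 cells they were 1075 and 198 CPM.

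**Figure D2:**
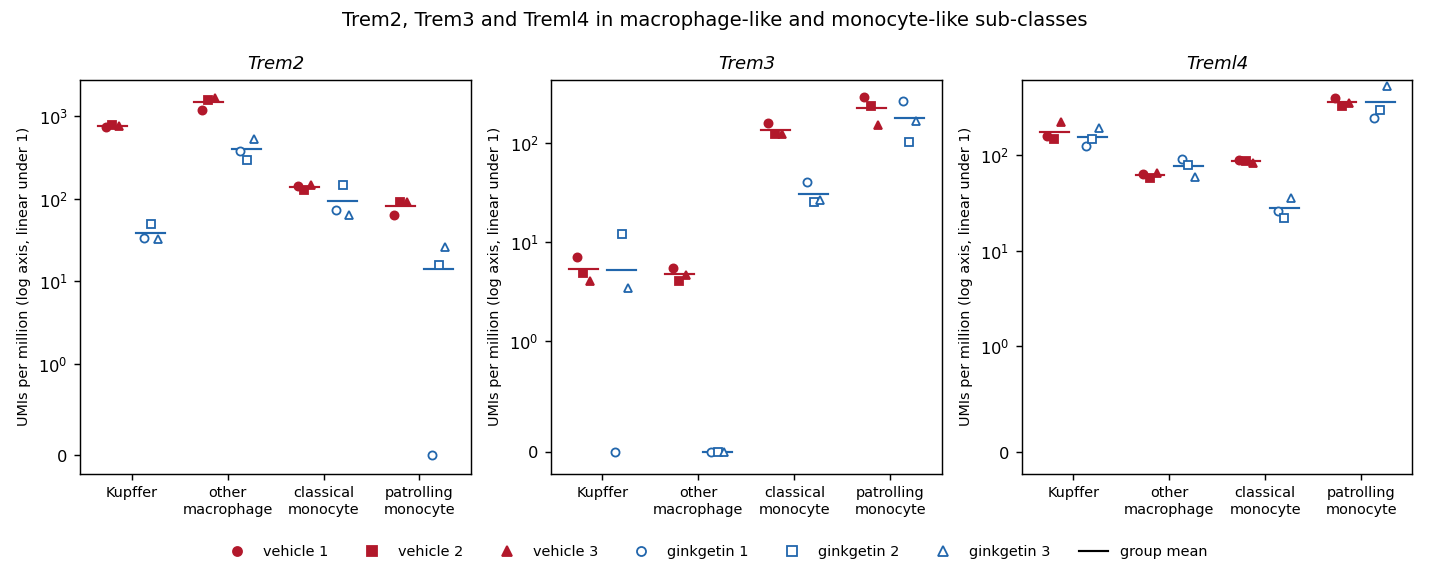
Level of Trem2, Trem3 and Treml4 in CPM (log axis, linear under 1) in Kupffer-like, other macrophage-like, classical monocyte-like and patrolling monocyte-like cells, with 1 point per library and a line at the group mean. Trem2 is lower in every ginkgetin library in both macrophage sub-classes, and Trem3 and Treml4 in the classical monocyte-like cells.

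At equal depth a smaller share of macrophage-like cells carried a Trem2 transcript in every ginkgetin library. After each cell was thinned to 1000 UMIs, the share of macrophage-like cells that had Trem2 was 47.3%, 50.1% and 58.1% in the vehicle libraries and 6.73%, 9.47% and 3.08% in the ginkgetin libraries. The groups did not overlap, and the means of 51.8% ± 5.59 and 6.43% ± 3.20 (SD, n = 3 each) differed by -45.4 percentage points (two-sided exact permutation p = 0.1, the smallest that 3 against 3 can give, 0.389 adjusted over 35 tests). Without thinning the means were 86.5% and 16.0%. In vehicle 3 and ginkgetin 3, 2 and 57 macrophage-like cells had too few UMIs to be thinned. The background was taken from T cell-like cells, which are not known for Trem2, at 1.12% in vehicle and 0.0324% in ginkgetin libraries (4.02% and 0.135% unthinned, median depths 3323 and 3201 UMIs against 10285.5 and 2218 in macrophage-like cells). Monocyte-like cells had 9.71% ± 0.973 and 7.02% ± 2.81 (SD, n = 3 each), and the groups overlapped. Their mean lay between those of T cell-like and macrophage-like cells in vehicle, but in ginkgetin libraries it was above the macrophage-like mean of 6.43%. Kupffer-like cells had a Trem2 UMI in 42.9% and 4.08% and the other macrophage-like cells in 59.2% and 22.1%.

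**Figure D3:**
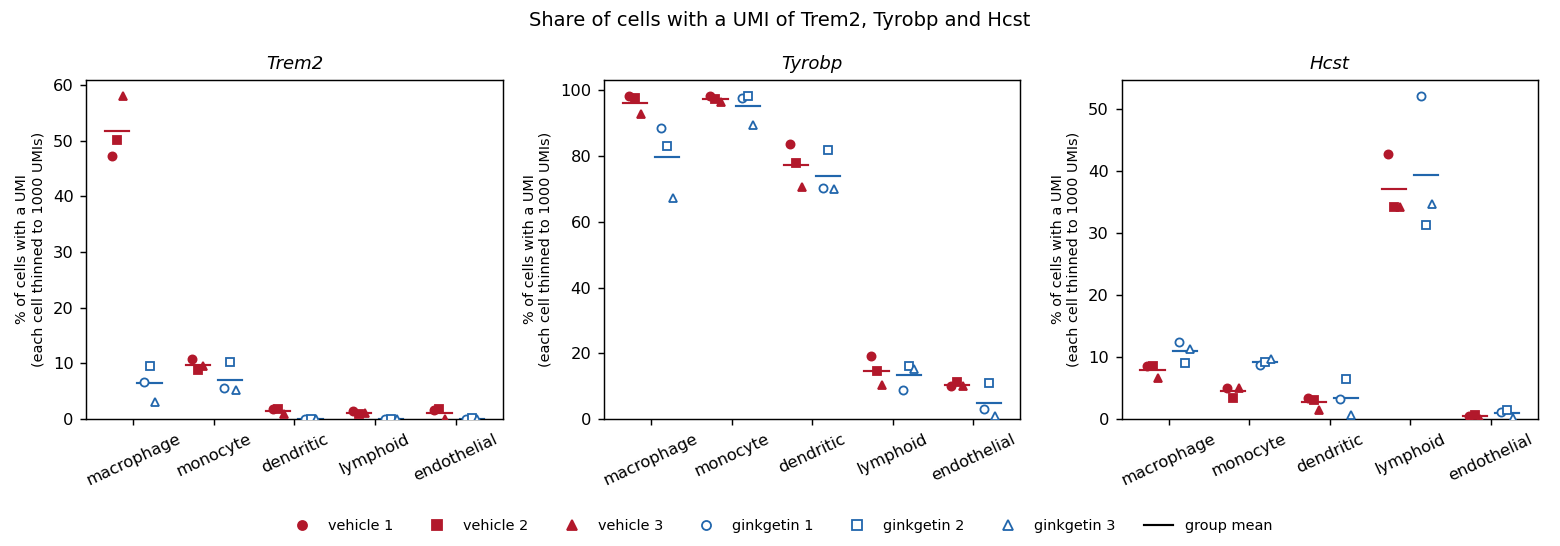
Share of cells with a UMI of Trem2, Tyrobp and Hcst after each cell was thinned to 1000 UMIs, with 1 point per library, filled for vehicle and open for ginkgetin, and a line at the group mean. The Trem2 share of macrophage-like cells lies between 47.3% and 58.1% in vehicle and between 3.08% and 9.47% in ginkgetin libraries, and is near 0 in dendritic-like, lymphoid-like and endothelial-like cells.

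Outside macrophages Trem2 followed a steep order. In the vehicle libraries the mean was 659 CPM in the neutrophil-like cells of replicates 1 and 3 (561 and 757 CPM), which also held macrophage markers, 130 CPM in monocyte-like, 18.1 in endothelial-like, 11.7 in lymphoid-like and 10.0 in dendritic-like cells, and the last 3 overlapped with each other. Monocyte-like cells had 134, 123 and 133 CPM in vehicle and 62.1, 127 and 52.0 CPM in ginkgetin libraries, so that the groups overlapped (log2 fold change -0.70, SE 0.39, edgeR adjusted p = 0.466). Of the Trem2 UMIs in kept cells 41723 of 47846 (87.2%) came from macrophage-like cells in the vehicle group and 340 of 631 (53.9%) in the ginkgetin group, where monocyte-like cells gave 28.2%. Macrophage-like cells thus supplied the larger share in both groups. In the neutrophil-like cells Trem2 had 54, 4 and 278 UMIs in 12, 4 and 28 vehicle cells, and no test could be made there because no ginkgetin library held 10 such cells. Patrolling monocyte-like cells, which crawl along the vessel wall, had 63.2, 91.1 and 91.4 CPM in vehicle and 0, 15.8 and 26.2 CPM in ginkgetin libraries, and these did not overlap. These ginkgetin levels rest on 0, 2 and 8 UMIs in 26, 47 and 47 cells, and in ginkgetin 1 a count of 3 would be 53.3 CPM. The difference between the groups in patrolling cells was -2.13 on the log2 scale (edgeR adjusted p = 0.261). It was called with the replicate block described next (-2.18, adjusted p = 0.00887).

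Trem2 was lower in every ginkgetin library also in the classes where it was near the background. Dendritic-like cells had 10.9, 12.3 and 6.82 CPM in vehicle and 1.82, 2.27 and 0 CPM in ginkgetin libraries. Lymphoid-like cells had 12.9, 12.4 and 9.90 against 0.644, 1.18 and 0.119 CPM, and endothelial-like cells 18.8, 24.5 and 10.9 against 0.700, 1.80 and 0.132 CPM. The ginkgetin values rest on 2, 5 and 0 UMIs in dendritic-like, 3, 9 and 1 in lymphoid-like and 2, 14 and 1 in endothelial-like cells. The endothelial-like value of vehicle 3 is 1 UMI, and a count of 3 there would be 32.6 CPM. None of the differences in these classes was called by the edgeR fit, with log2 fold changes of -2.96 (adjusted p = 0.180), -4.22 (adjusted p = 0.328) and -4.65 (adjusted p = 0.0735). With the replicate number as a block they were -3.02, -4.35 and -4.38 and all were called (adjusted p = 0.0293, 0.0298 and 0.00151). The edgeR fits called 0% of 7302 genes in monocyte-like, 0% of 8965 in dendritic-like and 0% of 10960 in lymphoid-like cells in either direction. Of 9895 genes tested in the endothelial-like class, 0.243% were called lower and 0.313% in either direction. In the monocyte-like, dendritic-like and lymphoid-like classes, where edgeR called 0 genes, 983, 1481 and 1329 genes had an unadjusted p under 0.05 and DESeq2 called 103, 146 and 155. With the block 8.23% of genes were called lower in macrophage-like, 1.66% in monocyte-like, 1.42% in dendritic-like, 0.356% in lymphoid-like and 2.07% in endothelial-like cells. The 8 macrophage markers moved the same way in these classes, from 490 to 654 down to 153 to 388 CPM in dendritic-like, from 149 to 224 down to 32.4 to 103 CPM in lymphoid-like and from 261 to 309 down to 54.6 to 126 CPM in endothelial-like cells. Their part in the low Trem2 values was not tested. Vehicle 3 held 26 endothelial-like cells, but 323 more of its cells lay in an unnamed cluster with all 8 endothelial markers, and a second unnamed cluster with 7 of them held 322, 101 and 4 vehicle cells. With the unnamed clusters that hold endothelial markers added, Trem2 was at -4.35 (edgeR adjusted p = 0.0714). Within the class, nearly all vehicle endothelial-like cells lay in 1 cluster and nearly all ginkgetin ones in 5 others.

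**Figure D4:**
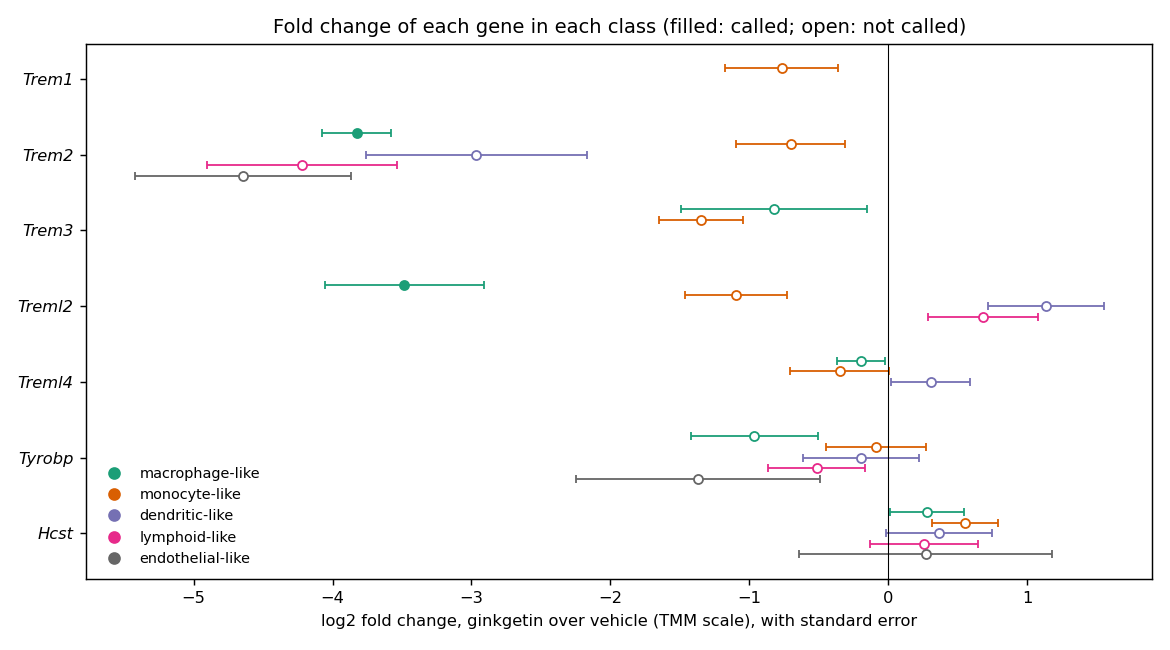
Log2 fold change of each gene, ginkgetin over vehicle, with its standard error in each class where it was tested, filled where it was called. Only Trem2 and Treml2 in macrophage-like cells are filled, at -3.83 and -3.49, and the Treml2 values lie on both sides of 0 across classes.

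Trem1, which with Tyrobp amplifies inflammatory responses, was scarce outside neutrophil-like and monocyte-like cells. Neutrophil-like cells had 7, 0 and 42 UMIs in the vehicle libraries (72.7, 0 and 114 CPM) and 5 and 11 UMIs in ginkgetin replicates 2 and 3, from 4 to 28 cells each. Monocyte-like cells had 11.6, 18.6 and 26.4 CPM in vehicle and 14.9, 7.47 and 13.3 CPM in ginkgetin libraries, and the groups overlapped (log2 fold change -0.77, SE 0.41, edgeR adjusted p = 0.449). Their classical cells had 9.45, 17.7 and 25.4 CPM against 11.5, 2.96 and 4.44 CPM, the last 3 from 4, 2 and 3 UMIs, and these overlapped too (log2 fold change -1.66, SE 0.61, edgeR adjusted p = 0.346). Patrolling monocyte-like cells held it at 28.0 to 34.7 CPM in vehicle and 31.5 to 35.5 CPM in ginkgetin libraries, from 2 to 19 UMIs a library. In the macrophage-like, dendritic-like, lymphoid-like and endothelial-like classes no library exceeded 2.21 CPM, and Trem1 passed the filter on low counts in none of them.

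Trem3, a close relative of Trem1 in the mouse, was mainly a monocyte-like transcript. Monocyte-like cells had 169, 133 and 129 CPM in vehicle and 72.0, 37.3 and 70.3 CPM in ginkgetin libraries. All ginkgetin values were below all vehicle values, yet the difference of -1.35 on the log2 scale was not called (SE 0.30, edgeR adjusted p = 0.213). It was called with the replicate block (-1.34, adjusted p = 0.0111) and by DESeq2 (-1.36, adjusted p = 0.0101). Classical monocyte-like cells, the Ly6c2-bearing recruits from blood, had 158, 123 and 123 CPM in vehicle and 40.4, 25.1 and 26.7 CPM in ginkgetin libraries without overlap. Different clusters held most classical cells of the 2 groups, 4 for vehicle and 2 others for ginkgetin. In clusters with 10 or more cells of both groups the pooled Trem3 level was 213 and 79.1 CPM in one (305 vehicle and 32 ginkgetin cells) and 35.0 and 65.2 CPM in the other (45 and 11 cells), so the direction differed. In the classical cells as a whole the log2 fold change was -2.19 (SE 0.30, edgeR adjusted p = 0.1004) and with the block -2.18 (adjusted p = 0.00275), where 1.15% of 6873 genes were called lower. The ginkgetin levels rest on 14, 17 and 18 UMIs. Patrolling monocyte-like cells had 287, 238 and 151 CPM in vehicle and 267, 102 and 167 CPM in ginkgetin libraries, and the groups overlapped. Whether the effect differed between the 2 monocyte sub-classes was not tested. The markers of patrolling cells summed to 994 to 1607 CPM in vehicle and 1326 to 2768 CPM in ginkgetin monocyte-like cells, those of classical cells to 8513 to 10692 and 6034 to 8440 CPM, and the 8 endothelial markers to 42.8 to 67.6 and 121 to 802 CPM, and their part in the Trem3 values was not tested. Macrophage-like cells had at most 8.65 CPM of Trem3 in any library.

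Treml4, known from splenic macrophages and dendritic cells as a receptor for late apoptotic cells, had overlapping groups in macrophage-like cells, as the scarce Trem1 and Trem3 did there. Macrophage-like cells had 119, 100 and 130 CPM in vehicle and 118, 130 and 172 CPM in ginkgetin libraries. The log2 fold change was -0.20 (SE 0.17, edgeR adjusted p = 0.483), and its sign flipped to 0.28 when libraries were scaled by total UMIs. In vehicle libraries the means were 139 CPM in neutrophil-like, 123 in monocyte-like and 117 in macrophage-like cells, neighbours in this order overlapped, and dendritic-like cells were lower at 19.3 CPM. Among macrophages Kupffer-like cells had the higher level, 147 to 222 CPM in vehicle against 58.3 to 65.1 CPM in the other macrophage-like cells. The Kupffer-like fold change was -0.59 (edgeR adjusted p = 0.0969), with 125 to 193 CPM in ginkgetin libraries, which overlapped with vehicle.

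The highest Treml4 levels were in patrolling monocyte-like cells, with 404, 329 and 355 CPM in vehicle and 249, 299 and 530 CPM in ginkgetin libraries. These overlapped between groups. Classical monocyte-like cells had 90.0, 87.1 and 84.0 CPM in vehicle and 26.0, 22.2 and 35.5 CPM in ginkgetin libraries, which did not overlap (log2 fold change -1.68, SE 0.22, edgeR adjusted p = 0.1004, and -1.66 with the block, adjusted p = 0.00792). The groups' classical cells lay mostly in different clusters, and in the 2 shared ones the pooled Treml4 level was 169 and 73.8 CPM and, in the smaller, 16.2 and 52.1 CPM. In all monocyte-like cells together the difference was -0.35 (edgeR adjusted p = 0.699). There the log2 ratio of CPM was -0.87 within replicates 1 and 2 and 0.41 within replicate 3, so the direction differed. Among dendritic-like cells the type 1 cells, which cross-present antigen, had 42.2 to 57.9 CPM in vehicle and 31.7 to 88.7 CPM in ginkgetin libraries, while type 2 cells had 2.70 to 6.95 CPM in any library. The type 1 log2 ratios were -0.47 within replicates 1 and 2 and 0.86 within replicate 3.

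Treml2, which is known from B cells, T cells and activated macrophages, was lower in macrophage-like cells of the ginkgetin libraries, and no other class had a called difference. In macrophage-like cells it had 111, 73 and 186 UMIs in vehicle and 0, 2 and 2 UMIs in ginkgetin libraries, or 8.86, 12.1 and 10.4 against 0, 2.88 and 0.969 CPM. The groups did not overlap, and the log2 fold change was -3.49 (SE 0.57, edgeR adjusted p = 0.0170, and -2.95 by total UMIs, adjusted p = 0.0185). This call rests on 4 ginkgetin UMIs, and when each library was left out in turn it held only without vehicle 3 (adjusted p from 0.0266 to 0.122 over the 6 fits). In Kupffer-like cells it was -3.09 (edgeR adjusted p = 0.0265), from 177 vehicle and 4 ginkgetin UMIs. In the other macrophage-like cells 193 UMIs were found in vehicle and 0 in ginkgetin libraries, where 3 counts would be 5.11 CPM, so that the pooled vehicle level of 10.1 CPM was at least 1.98-fold higher, but the fit did not call it (edgeR adjusted p = 0.144). After thinning, the mean share of macrophage-like cells with a Treml2 UMI was 1.14% in the vehicle group and 0.343% in the ginkgetin group, and that of endothelial-like cells 0% and 0.0111%.

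The lymphoid cells held Treml2 in both groups. B cell-like cells had 33.7, 33.9 and 36.5 CPM in vehicle and 39.6, 54.1 and 117 CPM in ginkgetin libraries, and although the groups did not overlap the difference of 0.87 was not called (SE 0.28, edgeR adjusted p = 0.342). Ginkgetin 3 stood apart, with a log2 ratio of 1.69 to vehicle 3, against 0.47 within replicates 1 and 2. Most B cell-like cells of vehicle 1 and 2 (270 and 189) lay in another cluster than most of ginkgetin 1 and 2 (254 and 952), while those of both replicates 3 shared a cluster. Dendritic-like cells had 7.16, 5.89 and 3.17 CPM in vehicle and 12.7, 7.72 and 16.9 CPM in ginkgetin libraries (log2 fold change 1.14, SE 0.42, edgeR adjusted p = 0.2499). Their plasmacytoid cells, the interferon producers, had 10.7 to 26.0 CPM in vehicle and 24.3 to 61.1 CPM in ginkgetin libraries from 2 to 27 UMIs each. Plasmacytoid cells were 92, 46 and 21 of 465, 225 and 334 dendritic-like cells in vehicle and 18, 99 and 43 of 125, 310 and 166 in ginkgetin libraries. Most dendritic-like cells of ginkgetin 2 lay in clusters with few vehicle cells. The part of these differences in the dendritic-like Treml2 values was not tested. Of all Treml2 UMIs macrophage-like cells gave 45.6% in vehicle and 0.668% in ginkgetin libraries, and lymphoid-like cells 25.4% and 79.3%.

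The adaptor Tyrobp was present across the myeloid classes and NK cells. Macrophage-like cells had 4440, 4217 and 2757 CPM in vehicle and 3453, 2857 and 1480 CPM in ginkgetin libraries, and the groups overlapped. Replicate 3 was the lowest in both groups. The log2 fold change of -0.96 was not called (SE 0.46, edgeR adjusted p = 0.196), but with the replicate block it was -1.06 and was called (adjusted p = 0.00599), and within replicates 1 and 2 and within replicate 3 the log2 ratios of CPM were -0.46 and -0.90. The thinned share of macrophage-like cells with a Tyrobp UMI was 96.2% ± 2.99 and 79.6% ± 10.98 (SD, n = 3 each, two-sided exact permutation p = 0.1, adjusted 0.389, and 99.9% and 90.0% unthinned). Endothelial-like cells gave a background of 10.5% and 5.03%. In Kupffer-like cells the block gave -1.18 (adjusted p = 0.00282) against -1.09 without it (adjusted p = 0.167), and in the other macrophage-like cells the fit without it gave -0.54 (adjusted p = 0.474).

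In monocyte-like cells Tyrobp had 4494, 4142 and 3368 CPM in vehicle and 4195, 4378 and 2889 CPM in ginkgetin libraries (log2 fold change -0.09, SE 0.36, edgeR adjusted p = 0.955). The groups overlapped, and the vehicle means of 4001 CPM in monocyte-like, 3979 in neutrophil-like and 3804 in macrophage-like cells were not separated by their ranges. Dendritic-like cells followed at 2265 CPM, with 4869 to 6807 CPM in the plasmacytoid and 670 to 977 CPM in the type 1 cells of the vehicle libraries. NK cell-like cells had 2357, 2236 and 1721 CPM in vehicle and 2966, 2936 and 2105 CPM in ginkgetin libraries, which overlapped (0.30, edgeR adjusted p = 0.797). T cell-like cells had 53.5 to 143 CPM in vehicle, near the endothelial-like level of 111 to 163 CPM. In ginkgetin libraries they had 71.5, 154 and 92.8 CPM, each above the endothelial-like 31.1, 129 and 8.85 CPM.

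**Figure D5:**
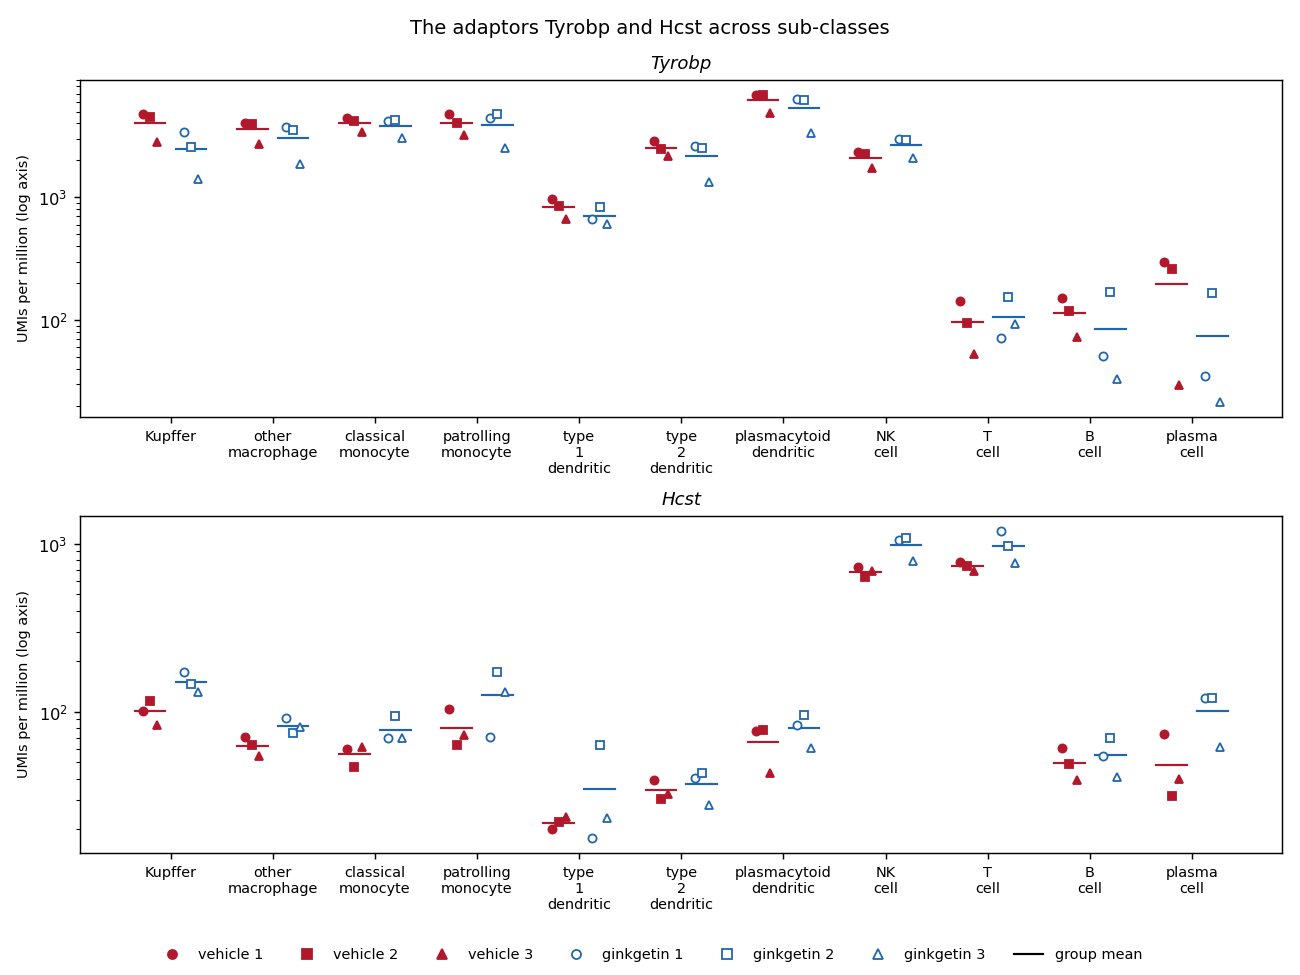
Level of Tyrobp and Hcst in CPM (log axis) across 11 sub-classes, with 1 point per library, filled for vehicle and open for ginkgetin, and a line at the group mean. Tyrobp is 608 or more in every library of the myeloid sub-classes and NK cells drawn, whereas Hcst reaches 637 only in NK and T cells.

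Hcst was highest in NK and T cells, the cells that bear NKG2D. Lymphoid-like cells had 615, 524 and 430 CPM in vehicle and 925, 525 and 506 CPM in ginkgetin libraries, and the groups overlapped (log2 fold change 0.26, SE 0.39, edgeR adjusted p = 0.825). NK cell-like cells had 725, 637 and 685 CPM against 1057, 1079 and 794 CPM without overlap, and this difference of 0.48 was not called (edgeR adjusted p = 0.6002). T cell-like cells had 692 to 775 CPM in vehicle and 767 to 1193 CPM in ginkgetin libraries. Hcst was lower in the myeloid classes, with vehicle means of 81.0 CPM in macrophage-like, 58.8 in monocyte-like and 32.3 in dendritic-like cells, and the first 2 did not overlap in range.

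In macrophage-like cells Hcst had 87.8, 88.4 and 66.7 CPM in vehicle and 157, 125 and 123 CPM in ginkgetin libraries. The groups did not overlap on this total-UMI scale, on which the difference was 0.73 (adjusted p = 0.0494, under the fold of 2), but with TMM it was 0.28 (SE 0.26, edgeR adjusted p = 0.519). Its thinned share was 7.87% in vehicle and 10.9% in ginkgetin cells, against 51.0% and 33.0% without thinning and a thinned background of 0.423% and 0.947% in endothelial-like cells. The sign of the share difference thus turned with depth. Lymphoid markers in these cells were higher in ginkgetin libraries. The 5 T cell markers summed to 2.80 to 7.75 CPM in vehicle and 29.6 to 44.7 CPM in ginkgetin libraries, and the NK cell markers to 1.74 to 5.11 and 10.7 to 66.3 CPM. Those of B cells summed to 33.2 to 37.0 and 38.5 to 140 CPM and those of plasma cells to 122 to 241 and 302 to 840 CPM. The part of these markers in the Hcst values was not tested.

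The balance of the 2 adaptors within a library does not depend on scaling. For each Hcst UMI macrophage-like cells had 50.5, 47.7 and 41.3 Tyrobp UMIs in vehicle and 22.0, 22.8 and 12.1 in ginkgetin libraries. All ginkgetin ratios were below all vehicle ratios, in Kupffer-like cells as well (33.7 to 46.8 against 10.8 to 19.6). The same held in dendritic-like cells (72.4, 73.9 and 61.9 against 58.6, 42.5 and 44.8) and in unnamed myeloid cells (55.3 to 71.4 against 16.5 to 49.5). Among dendritic-like cells the groups were apart in plasmacytoid and type 2 cells and overlapped in type 1 cells. In monocyte-like cells the ratios of 70.2, 85.6 and 52.6 in vehicle and 60.3, 40.9 and 32.6 in ginkgetin libraries overlapped, although the ginkgetin ratio was the lower within each replicate number. NK cell-like cells kept 2.51 to 3.51 in vehicle and 2.65 to 2.80 in ginkgetin libraries. In lymphoid-like cells as a whole the ratio was under 1 in each library (0.434 to 0.614 and 0.152 to 0.518).

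Most macrophage-like cells with a Trem2 UMI also had Tyrobp. At 1000 UMIs per cell, 1540 of 1605 vehicle macrophage-like cells with Trem2 had Tyrobp (96.0%), as did 96.5% of those without Trem2. In ginkgetin libraries 41 of 45 such cells had it (91.1%), and 73.6% of the cells without Trem2. Cells of 1 library are not independent, so these shares are descriptive.

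The effect of ginkgetin was compared between classes by an interaction term with the library as a block, for 7 members against monocyte-like and 6 against dendritic-like cells. The Trem2 effect was 2.90 lower on the log2 scale in macrophage-like than in monocyte-like cells (SE 0.29, edgeR adjusted p = 1.15e-05) and was called, beside 2.76% of 9741 genes called lower. It did not differ detectably from that in dendritic-like cells (-0.81, SE 0.77, adjusted p = 0.603), where levels were near the background. The Treml2 effect was 4.72 lower in macrophage-like than in dendritic-like cells (SE 0.68, edgeR adjusted p = 0.000502), beside 3.61% of 10310 genes called lower. Against monocyte-like cells it was 2.16 lower and was not called (SE 0.84, edgeR adjusted p = 0.137). The Tyrobp effect passed the adjusted p without reaching a fold of 2, at -0.83 against monocyte-like cells (SE 0.22, edgeR adjusted p = 0.0237) and -0.80 against dendritic-like cells (SE 0.23, edgeR adjusted p = 0.0429). With a library left out the adjusted p for Tyrobp reached 0.118 and 0.163. It was past 0.05 against monocyte-like cells without vehicle 1 (0.107) or vehicle 2 (0.118), and against dendritic-like cells without vehicle 1 (0.138), vehicle 2 (0.163), vehicle 3 (0.0701) or ginkgetin 2 (0.109). The other members, Trem1, Trem3, Treml4 and Hcst, had an adjusted p of 0.272 or more where tested. Of all genes 6.82% and 7.48% had an adjusted p under 0.05 in these comparisons. The part that differing clusters of the groups had in these class differences was not tested.

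The wider TREM pathway was described by a list of 36 genes in the tables. In macrophage-like cells 3 of the 32 tested were called lower (4.86% of all genes tested were) and 0 higher by edgeR, and the median log2 fold change of the list was 0.06 beside 0.02 for all genes. The ligands Lgals3 and Apoe were both lower. Lgals3 (galectin-3) had 2303 ± 316 CPM in vehicle and 457 ± 39.9 CPM in ginkgetin libraries (SD, n = 3 each, log2 fold change -2.77, edgeR adjusted p = 0.0114). Apoe, the lipid carrier, had 50584 ± 10782 and 12587 ± 2432 CPM (SD, n = 3 each, -2.46, edgeR adjusted p = 0.0145). The third was Lat2, a scaffold for Syk signalling, with 83.0 ± 10.9 and 28.7 ± 18.0 CPM (SD, n = 3 each, -1.96, edgeR adjusted p = 0.0235). It was the 1 gene called among 18 signalling genes, which included Syk, Plcg2 and Btk. The next by p were Cd300lb and Sirpb1c, receptors that also use Tyrobp, at -1.10 and -1.13 (edgeR adjusted p = 0.0591 and 0.0618), and neither of them, nor the sheddases Adam10 and Adam17, was called. In the other classes 0 list genes were called, of 32 tested in monocyte-like, 33 in dendritic-like, 30 in lymphoid-like and 19 in endothelial-like cells, with medians of -0.01, -0.12, 0.01 and -0.16.

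Across 32 sums of a library and class the patterns most like those of Trem2 were those of Il1rn, Lpl and C5ar1 (Pearson r of 0.932, 0.932 and 0.931 on log2 CPM + 1). Tyrobp was most like Lgals3, Ctsh and Ms4a6c (0.969, 0.965 and 0.959), and Hcst most like Rasgrp1, Rab19 and Abca2 (0.925, 0.915 and 0.903). The sums share libraries and depth, so these values are a description.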

How the data were processed

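The authors deposited a table of UMI counts per gene and cell for each library. Processing notes name GRCm38 and mm10, and the aligner settings are not given in the sources used here. Cells with 250 to 5000 genes and under 5% mitochondrial UMIs were kept. The study's methods give the limits of 250 and 5000 for UMIs, and that reading, which removes cells of over 5000 UMIs, was run as an alternative. Cells were clustered by Leiden (scanpy 1.11.5, leidenalg 0.10.2) without the 7 members among the variable genes, and 72 clusters were named from markers, of which 116 of 117 were in the tables. Unnamed clusters held 2102 cells. No doublets were removed, because the caller marked under 0.5% of cells, and removal of the highest 5% of scores was tried instead. The members and lists were chosen with earlier results of these data known.

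UMI counts were summed per library and class, with at least 10 cells a library, and all genes passing filterByExpr were tested with edgeR 4.0.16 (quasi-likelihood, TMM, R 4.3.3) and adjusted by Benjamini-Hochberg. CPM levels are scaled to the total UMIs of the class and library. Shares were compared by two-sided exact permutation tests over libraries. Intervals and limits for a count of 0 (3 counts) cover counting error only. In simulated macrophage-like data with 3 libraries per group, edgeR called 97.5% of genes changed 8-fold and 81.2% of those changed 3-fold. The interaction test called 95.3% and 50%. The simulation had a fixed dispersion and no difference between replicate sets. It changed 200 genes, all above a minimum mean count. These shares may therefore not carry over to the real data or to sparse genes.

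The named genes were the 7 members, the called genes of the pathway list with the next by p, and the genes most like Trem2, Tyrobp and Hcst. Libraries of the 2 groups share replicate numbers, and same-numbered libraries deviated together from their group means in each of the 5 classes (r of 0.408, 0.459 and 0.796 in macrophage-like cells, from 0.354 to 0.854 over all classes). The labels do not say what a number shares, and replicates 1 and 2 also correlated across numbers. Alternatives covered the test (DESeq2 1.42.0, limma-voom with limma 3.58.1), the block, scaling, filters, clusters, doublets, thinning and each library left out.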

Additional observations from a re-analysis of the deposited data

Results flagged for a closer look

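The effect of ginkgetin on 3 of the members differed between cell classes by an interaction term fitted over all genes with edgeR. The Trem2 effect was -2.90 on the log2 scale in macrophage-like relative to monocyte-like cells, and it was called under all 11 alternatives run. The Treml2 effect was -4.72 in macrophage-like relative to dendritic-like cells and was called under all 10 alternatives run. The Tyrobp effect was -0.83 relative to monocyte-like and -0.80 relative to dendritic-like cells, both past the adjusted p and under a fold of 2, and the adjusted p rose to 0.118 and 0.163 with a library left out and to 0.203 and 0.237 with a marker gate per cell. Macrophage-like cells of the ginkgetin libraries also had fewer UMIs per cell than those of the vehicle libraries (group medians 2218 and 10285.5), and the part of this gap in the differences was not tested.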

How the results depend on the processing

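Over 36 values of a single gene, Trem2 in macrophage-like cells apart, 500 alternative values kept the direction and the side of the threshold, 5 lost a call (all Treml2 in macrophage-like cells with a library left out), 21 gained one and 19 turned the direction. Trem2 in macrophage-like cells lost its call in 3 of 20 alternative fits. In macrophage-like cells the 2 members called became 0 to 2 with a library left out, over which the Trem2 log2 fold change was -3.93 to -3.73, and 1 with the cell filter read as UMIs, where the vehicle Trem2 level was 641 instead of 1134 CPM. In monocyte-like, dendritic-like, lymphoid-like and endothelial-like cells the count of members called went from 0 to 1 each with DESeq2, with the replicate block and with a block for the replicate set. In endothelial-like cells it was 1 also with replicates 1 and 2 only and with no cell filter, and 0 to 1 with a library left out. Pairs of a member and class called were 2, and 6 with DESeq2, 7 with the replicate block, 7 with the set block, 1 with the UMI filter and 0 to 2 with a library left out. The 2 differences called between classes became 2 to 4. The replicate block changed no other call than those given in the report.

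Direction turned for Treml4 in macrophage-like cells to 0.28 by total UMIs and 0.0692 with the UMI filter, and in dendritic-like cells to -0.0232 with no cell filter and -0.0567 with a marker gate per cell. Tyrobp turned to 0.0219 in monocyte-like cells with replicates 1 and 2 only and to 0.0437 in dendritic-like cells with no cell filter, and Hcst in endothelial-like cells to -0.55 with limma-voom. With a library left out the ranges were -0.26 to 0.16 for Tyrobp in monocyte-like and -0.52 to 0.13 in dendritic-like cells, -0.14 to 0.70 for Hcst in dendritic-like, -0.20 to 0.52 in lymphoid-like and -0.19 to 0.90 in endothelial-like cells, and -1.64 to 0.20 for Trem2 in macrophage-like relative to dendritic-like cells. Share differences without thinning turned to -20.7 points for Treml4 and -18.0 for Hcst in macrophage-like cells and to -4.10 for Hcst in lymphoid-like cells, where the UMI filter gave -1.12 and a library left out -4.07 to 6.39. The cause was not tested. Neutrophil-like cells gave no test under any setting, and dendritic-like cells none under the UMI filter. Fits of sub-classes, added or left-out clusters and total-UMI scaling were chosen after seeing the data.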

Other observations

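Trem2 was also found in cells outside the named classes. In cycling cells it had 500 ± 158 CPM in vehicle and 6.64 ± 3.11 CPM in ginkgetin libraries (SD, n = 3 each), and cycling cells gave 5.43% of the vehicle Trem2 UMIs. The cycling cells differed in kind between the groups. Their cluster with macrophage markers held 77, 49 and 37 vehicle and 4, 13 and 20 ginkgetin cells, and their cluster with T cell markers held 34, 13 and 13 vehicle and 99, 26 and 18 ginkgetin cells. In unnamed myeloid cells, 703 in all, it had 322 ± 72.8 and 69.4 ± 26.5 CPM (SD, n = 3 each). The barcodes that the cell filter removed, 241 to 1191 per vehicle and 565 to 1968 per ginkgetin library, had 273, 315 and 445 CPM of Trem2 in vehicle and 9.54, 5.14 and 6.31 CPM in ginkgetin libraries. Treml2 in these barcodes had 5.75, 4.12 and 8.19 against 2.94, 6.35 and 17.7 CPM, which overlapped.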
